A study of Triticum aestivum with 10 samples.

Results

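Fertile anthers of the wheat line BS366 were followed over 5 anther lengths, on 5 of the 10 arrays of the series. The 5 arrays were those whose labels name the fertile condition, with 1 array each for anthers of about 1.5 and 2.0 mm, then 2.2 and 2.5 mm, and finally 3.0 mm. BS366 is a thermosensitive genic male sterile (TGMS) line of Triticum aestivum, and its fertile plants were kept at 20 °C with 12 h of light per day. The other 5 arrays hold anthers of the same line and lengths from the sterile condition, for which the labels give 5 days at 10 °C with the same hours of light. Every label gives meiosis as the stage. From morphology, the authors place the passage from mitosis to meiosis I at the 2.2-mm stage. All plants had been vernalized in the field. Transcripts were measured with the Affymetrix Wheat Genome Array, on which each probe set is a group of short oligonucleotides for 1 transcript. The values are MAS5 signals, linear intensities scaled within each array.

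An anther consists of wall layers around the cells that undergo meiosis and become pollen. The innermost wall layer, the tapetum, feeds the developing pollen and delivers material for the pollen wall before it breaks down. RAFTIN proteins of wheat are made in the tapetum and are carried to the young pollen on lipid-containing bodies. Histones are needed in bulk when DNA is copied, which in the pollen lineage happens before meiosis and again ahead of the pollen mitoses. The green tissue of the anther wall has chloroplasts, so photosynthesis genes are a usual part of anther transcriptomes.

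The anthers of 2.2 and 2.5 mm (2 arrays) were compared with those of 1.5 and 2.0 mm (2 arrays), and the 3.0-mm array was described as the last step. The 2 arrays of a group differ in length, so the spread between them holds development as well as measurement error. The sources used here do not say whether the plants of different lengths were separate. An exact permutation test of 2 arrays against 2 cannot go below p = 0.333 (two-sided). The tests below are therefore those of limma, fitted to 30590 probe sets at once. Their p-values measure only the spread between these arrays, largely as shared over probe sets of similar signal. In bulk anther RNA, fewer cells of a type and less RNA per cell cannot be told apart.

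Mean signals of the 5 fertile arrays were 118 to 125 and medians 20.7 to 24.1. Signals below 4.05, the 20th percentile of the whole table, were set to that floor. Precision is limited by there being so few arrays. The hybridization controls, transcripts added in fixed amounts, averaged 918 on the 2.2-mm array and 334 to 444 on the other fertile arrays. The 18S rRNA control was at 315 on the 1.5-mm array and between 2.22 and 9.26 on the others. Counts without each of these arrays are given beside the main counts, and the part of the controls' differences in the results was not tested. Both TaRAFTIN1 genes, the tapetum markers, gave signals far above the floor at every length, between 992 and 5941 over their 4 probe sets. Of 17 probe sets for seed storage proteins, which mark endosperm, 2 passed the filter on low signals. These were a probe set of ALP at 828 to 929 and one of gli-2 at 36.1 to 48.1.

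Neighbouring lengths differed least between 1.5 and 2.0 mm and most between 2.5 and 3.0 mm. At 2.0 mm against 1.5 mm, 1178 of 30590 probe sets were at least 2-fold higher and 674 at least 2-fold lower, 6.05% in all. At 2.2 mm against 2.0 mm the counts were 1509 higher and 3650 lower (5159 in all). At 2.5 mm against 2.2 mm they were 2308 higher and 724 lower (9.91% in all). At 3.0 mm against 2.5 mm, 2535 were higher and 3569 lower (20% in all). With 1 array per length these steps have no test. The correlation of log2 signals across probe sets was 0.952, 0.886, 0.935 and 0.796 for the 4 steps in that order, and probe sets are not independent replicates. The 3.0-mm array had a mean correlation of 0.773 with the other fertile arrays, against 0.864 to 0.873 for each of the other 4.

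The share of higher probe sets at the 2.2-mm array depended on how arrays were scaled. From 2.0 to 2.2 mm, 29.2% of the 2-fold differences were upward with the deposited scaling, 51.1% after quantile normalization and 44.4% after median centring. From 2.2 to 2.5 mm the upward share was 76.1% with the deposited scaling, 53.0% after quantile normalization and 50.6% after median centring. The median log2 difference of all tested probe sets was -0.29 for the first of these steps and 0.20 for the second. For the step to 3.0 mm the upward share was 41.5% with the deposited scaling, 42.6% after quantile normalization and 45.9% after median centring. Sterile anthers had 1434, 1594, 1243 and 2292 probe sets with a 2-fold difference over the same 4 steps. Each count is below that of the fertile step. The fertile counts are on 30590 probe sets filtered by their fertile signals, and the sterile counts on 30590 filtered by their sterile signals. These sets need not hold the same members, and no test of this contrast is possible with 1 array per length.

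**Figure D1:**
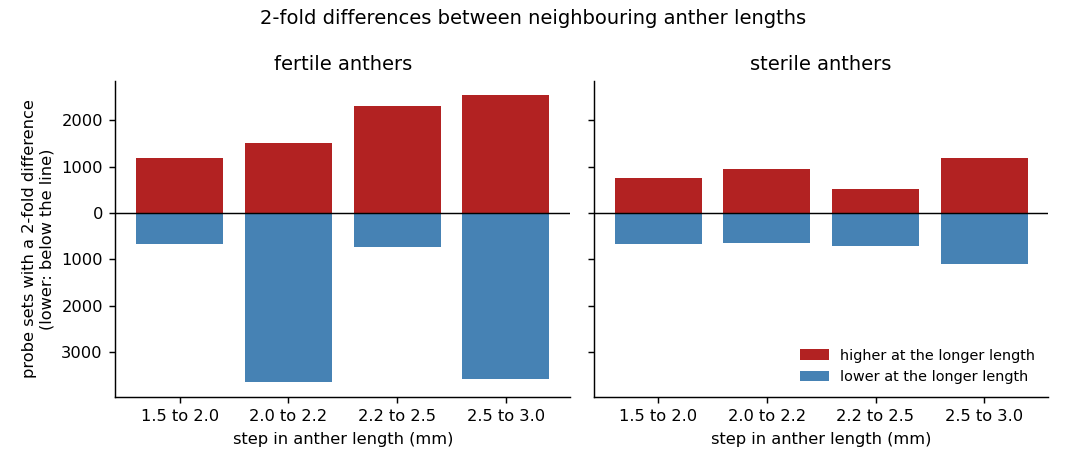
Number of probe sets with at least a 2-fold difference between neighbouring anther lengths (x axis, mm), higher at the longer length above the line and lower below it, in fertile anthers (left) and sterile anthers (right). Each side is out of 30590 probe sets, filtered by the signals of its own condition. The fertile steps to 2.2 and to 3.0 mm have the largest counts (5159 and 6104), while the sterile steps have between 1243 and 2292.

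Anthers of 2.2 and 2.5 mm differed from those of 1.5 and 2.0 mm in 1249 of the 30590 tested probe sets (4.08%). Of these, 745 were higher (2.44%) and 504 lower (1.65%) at a limma adjusted p under 0.05. At an unadjusted p under 0.05 there were 5846. For 11 calls both short arrays, and for 3 both mid-length arrays, were under the floor, where signals have no spread. The median log2 difference of all tested probe sets was -0.13. The annotation paired only 60 of the 1249 with a gene, so the genes named below are a small and uneven sample of the array. The count depended on the settings of the fit. Which direction had more calls also turned over: without the 2.5-mm array there were 730 higher and 1066 lower, and with the spread shared over all 10 arrays 2838 calls, 1091 higher and 1747 lower. The total was 0 without the filter on low signals (7382 at an unadjusted p under 0.05), 432 without an intensity trend and 391 with a floor at the 40th percentile. Leaving out the 1.5-mm array gave 527, the 2.0-mm array 802, the 2.2-mm array 1307 and the 2.5-mm array 1796. The lower calls ran from 120 (without the 1.5-mm array) to 1066 in these 4 fits.

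Among the 121 tested probe sets with a gene name, which belong to 75 genes, 16 were higher (13.2%, 13 genes) and 6 lower (4.96%, 4 genes), against 2.44% and 1.65% of all tested probe sets. These shares are not like for like, since several named probe sets detect the same gene and calls were more frequent among bright probe sets. Under a stricter filter that keeps only brighter probe sets, 1412 of 20393 passed. A further 79 named probe sets were too dim to be tested. Of 754 tested probe sets known only by a LOC number, 28 were higher and 10 lower. The named genes that passed upward at 2.2 and 2.5 mm belonged mostly to photosynthesis, sugar metabolism, the tapetum and antioxidant enzymes. Those that passed downward were all histone genes.

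The 4 tested probe sets of TaRAFTIN1A (chromosome 7A) and TaRAFTIN1B (7B), the RAFTIN genes of the tapetum, all had higher signals at 2.2 and 2.5 mm, and 3 of them passed. For TaRAFTIN1A the signals were 5903 at 2.2 mm and 4499 at 2.5 mm, against 1577 at 1.5 mm and 2395 at 2.0 mm, a 2.65-fold rise (log2 difference 1.41, SE 0.24, limma adjusted p = 0.011). At 3.0 mm the signal was 5666. The groups did not overlap, and all 3 longer lengths lay above both short ones. A second TaRAFTIN1A probe set read 2069 and 2478 at 2.2 and 2.5 mm, against 992 and 1120.0 at 1.5 and 2.0 mm, and reached 3575 at 3.0 mm (log2 difference 1.103, SE 0.21, limma adjusted p = 0.018).

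TaRAFTIN1B gave 5941 and 4412 at 2.2 and 2.5 mm, against 1503 and 2447 at 1.5 and 2.0 mm (log2 difference 1.42, SE 0.25, limma adjusted p = 0.014). Its second probe set gave 2696 and 2929, against 1422 and 1947, with a log2 difference of 0.76 (SE 0.21) that did not pass (limma adjusted p = 0.085). Signals at 3.0 mm were 5892 and 3999.9 for these probe sets. Both genes thus had their lowest signals at 1.5 mm on every probe set. Homoeologs are close in sequence, and some of these probe sets may detect both copies.

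Photosynthesis genes gave more calls than any other list of named genes that rose. Of 17 tested probe sets of 7 genes, 5 passed upward and 0 downward, with a median log2 difference of 0.90. For all tested probe sets the median was -0.13, and 2.44% passed upward. The 5 calls in the photosynthesis list belong to PRK, PsbP, Trx-M and petC. PRK (6D), the phosphoribulokinase of the Calvin cycle, had signals of 773 and 1007 at 2.2 and 2.5 mm, against 187 and 218 at 1.5 and 2.0 mm. This 4.37-fold difference had the smallest adjusted p of all named genes (log2 difference 2.13, SE 0.25, limma adjusted p = 0.0013). PRK increased with every length and read 1573 at 3.0 mm.

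PsbP (2A), a subunit of the oxygen-evolving complex of photosystem II, read 2919 and 2487 at 2.2 and 2.5 mm, against 903 and 1250.5 at 1.5 and 2.0 mm (log2 difference 1.34, SE 0.23, limma adjusted p = 0.010). Its other probe set also passed, with a log2 difference of 1.48 (SE 0.28, limma adjusted p = 0.019). Trx-M (5B), the m-type thioredoxin of chloroplasts, had 558 and 753, against 192 and 235 (log2 difference 1.61, SE 0.27, limma adjusted p = 0.0094). PsbP stayed near this level at 3.0 mm with 2353, while Trx-M was at 434.

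petC (2D), the Rieske protein of the cytochrome b6f complex, had 2251 and 1901 at 2.2 and 2.5 mm, against 852 and 1235 at 1.5 and 2.0 mm (log2 difference 1.01, SE 0.24, limma adjusted p = 0.044). This call was lost after median centring (limma adjusted p = 0.082) and without the 1.5-mm (0.38), 2.0-mm (0.053) or 2.2-mm array (0.089). PsbO, another subunit of the oxygen-evolving complex, had a log2 difference of 0.90 (SE 0.22) and did not pass (limma adjusted p = 0.055). FBP, a fructose-1,6-bisphosphatase, had 1.25 (SE 0.35, limma adjusted p = 0.079), with signals that went up at each length to 528 at 3.0 mm. A dimmer FBP probe set had -0.06. The 9 tested probe sets of rbcl, the large subunit of Rubisco, ran from -0.41 to 1.69 and none passed, so they give no single level. Of the 17 photosynthesis probe sets, 13 lay above 0 and 4 below, namely 3 of rbcl and the dimmer one of FBP.

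**Figure D2:**
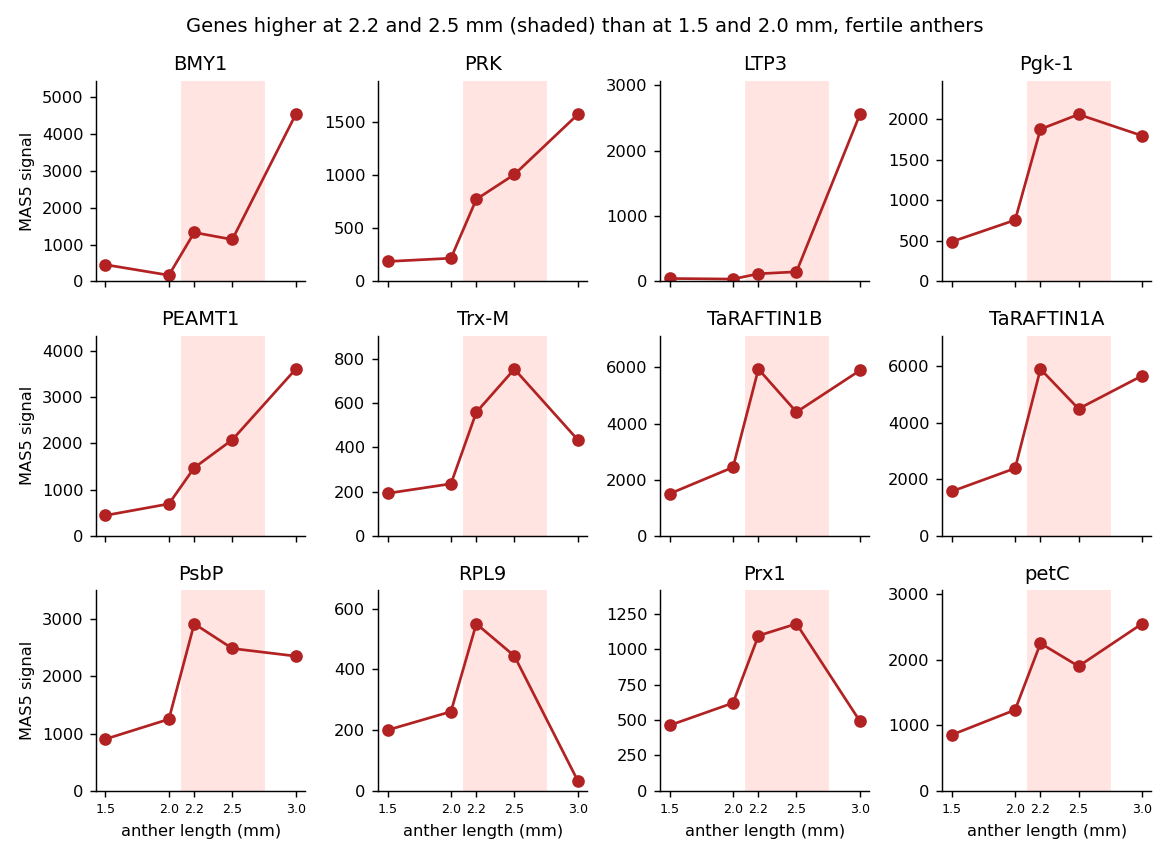
MAS5 signal (y axis, linear, from 0, own scale in each panel) against anther length (x axis, mm) for 12 of the 13 named genes that passed the test upward at 2.2 and 2.5 mm (shaded), 1 point per fertile array, lgul being left out because its brightest probe set did not pass. PRK and PEAMT1 increase at every step after 1.5 mm, and RPL9 has the largest drop at 3.0 mm (13.7-fold against 2.5 mm).

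Of 8 tested sugar and starch probe sets, 2 passed upward and 0 downward, with a median log2 difference of 0.44. Of all tested probe sets 2.44% passed upward, with a median of -0.13. BMY1 (2D), a beta-amylase that releases maltose from starch, had 1327 and 1136 at 2.2 and 2.5 mm, against 452 and 166 at 1.5 and 2.0 mm. The difference was 4.48-fold (log2 2.16, SE 0.40, limma adjusted p = 0.016), and the 2 short lengths themselves differed widely. BMY1 reached 4534 at 3.0 mm. Pgk-1 (1A), a phosphoglycerate kinase, had 1877 and 2058, against 488 and 756 (log2 difference 1.69, SE 0.25, limma adjusted p = 0.0051), and 1796 at 3.0 mm. AGA.1, listed with ADP-glucose pyrophosphorylase of starch synthesis, had a log2 difference of 1.04 (SE 0.33) that did not pass (limma adjusted p = 0.12). PMM, a phosphomannomutase, had 12.1 and 19.9, against 43.8 and 43.5, and did not pass either (log2 difference -1.49, SE 0.46, limma adjusted p = 0.11).

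PEAMT1 (1D) makes phosphocholine, a precursor of membrane lipids, by methylating phosphoethanolamine. Its signals were 1472.5 and 2076 at 2.2 and 2.5 mm, against 445 and 693 at 1.5 and 2.0 mm, a 3.15-fold rise (log2 difference 1.66, SE 0.28, limma adjusted p = 0.0097). PEAMT1 increased with every length, to 3600.4 at 3.0 mm. The 4 other tested probe sets of the methyl cycle and methyltransferases did not pass, and the median of all 5 was 0.50. SAHH, which removes S-adenosylhomocysteine after methyl transfer, had log2 differences of 0.24 and 0.50 on its probe sets. COMT1, an O-methyltransferase of the phenylpropanoid pathway, had 0.59 (SE 0.27, limma adjusted p = 0.27).

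Antioxidant enzymes had 3 probe sets higher and 0 lower of 10 tested, with a median log2 difference of 0.78. Of all tested probe sets 2.44% were higher and 1.65% lower, with a median of -0.13. The 3 calls belong to Prx1 and lgul. Prx1 (7A) read 1097 and 1182 at 2.2 and 2.5 mm, against 463 and 621 at 1.5 and 2.0 mm (log2 difference 1.09, SE 0.24, limma adjusted p = 0.034). A second Prx1 probe set had 1.602 (SE 0.31, limma adjusted p = 0.019). The last one had 0.87 and did not pass (limma adjusted p = 0.11). All 3 were lower at 3.0 mm than at 2.5 mm by more than 2-fold. lgul (5A), a lactoylglutathione lyase, had 56.5 and 94.3, against 19.5 and 18.8 (log2 difference 1.93, SE 0.40, limma adjusted p = 0.027). Its brighter probe set had 0.71 and did not pass (limma adjusted p = 0.30). CAT1, a catalase, had -0.49 (SE 0.34, limma adjusted p = 0.47), the only member of this group below 0.

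LTP3 (5B), a lipid-transfer protein, had 116 and 146 at 2.2 and 2.5 mm, against 43.4 and 34.6 at 1.5 and 2.0 mm (log2 difference 1.75, SE 0.32, limma adjusted p = 0.015). It then read 2554 at 3.0 mm. LTP3 was the 1 call among the 5 tested probe sets of defence genes and inhibitors (median 0.47), a list in which 18 of 23 probe sets were too dim to test. RPL9 (6B), a protein of the large ribosomal subunit, had 551 and 444, against 199.99 and 261 (log2 difference 1.12, SE 0.27, limma adjusted p = 0.047). RPL9 was at 32.5 at 3.0 mm. Its call was lost after median centring (limma adjusted p = 0.056) and without the 1.5-mm (0.32), 2.0-mm (0.086) or 2.2-mm array (0.13). The other 8 tested translation probe sets did not pass, and 4 of the 9 lay above 0 and 5 below. The list's median was -0.05, with 0.01 after median centring (5 above and 4 below) and -0.19 after quantile normalization (1 above and 8 below).

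Histone genes accounted for every named probe set that passed downward. Of 20 tested probe sets of 6 genes for histones and the chromatin protein Hmgb3, 6 passed downward and 0 upward, and 19 had a difference below 0. Their median log2 difference was -0.71, beside -0.13 for all tested probe sets, of which 1.65% passed downward. H2A-2 (6D), a gene of core histone H2A, had 424 and 267 at 2.2 and 2.5 mm, against 1231 and 809.5 at 1.5 and 2.0 mm (log2 difference -1.57, SE 0.30, limma adjusted p = 0.019). H2A-2 was lower at every longer length and read 71.5 at 3.0 mm. H2A-3 (6D) had 986 and 641, against 1734 and 1839 (log2 difference -1.17, SE 0.25, limma adjusted p = 0.029), and 187 at 3.0 mm. A dimmer H2A-3 probe set stayed between 28.8 and 43.6 at all 5 lengths, with a log2 difference of -0.02.

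H2A-9 (6B) and wcH2B-8 (7D), a gene of core histone H2B, were called by part of their probe sets. For H2A-9, 1 of 6 passed, with 962 and 746 at 2.2 and 2.5 mm, against 1533 and 1867 at 1.5 and 2.0 mm (log2 difference -0.998, SE 0.23, limma adjusted p = 0.039). The brightest H2A-9 probe set had -0.20 and did not pass (limma adjusted p = 0.61). For wcH2B-8, 3 of 7 passed, with log2 differences of -0.92, -0.96 and -0.98 (limma adjusted p = 0.035 to 0.041). wcH2B-6 had -0.61 (SE 0.23) and did not pass (limma adjusted p = 0.17). The brighter Hmgb3 probe set had 0.06, the only value of the list above 0 (2 after median centring). Histone genes form families of near copies, so signals of these probe sets may come from several genes. After median centring 1 of the 20 passed, and after quantile normalization 10 did, all downward.

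**Figure D3:**
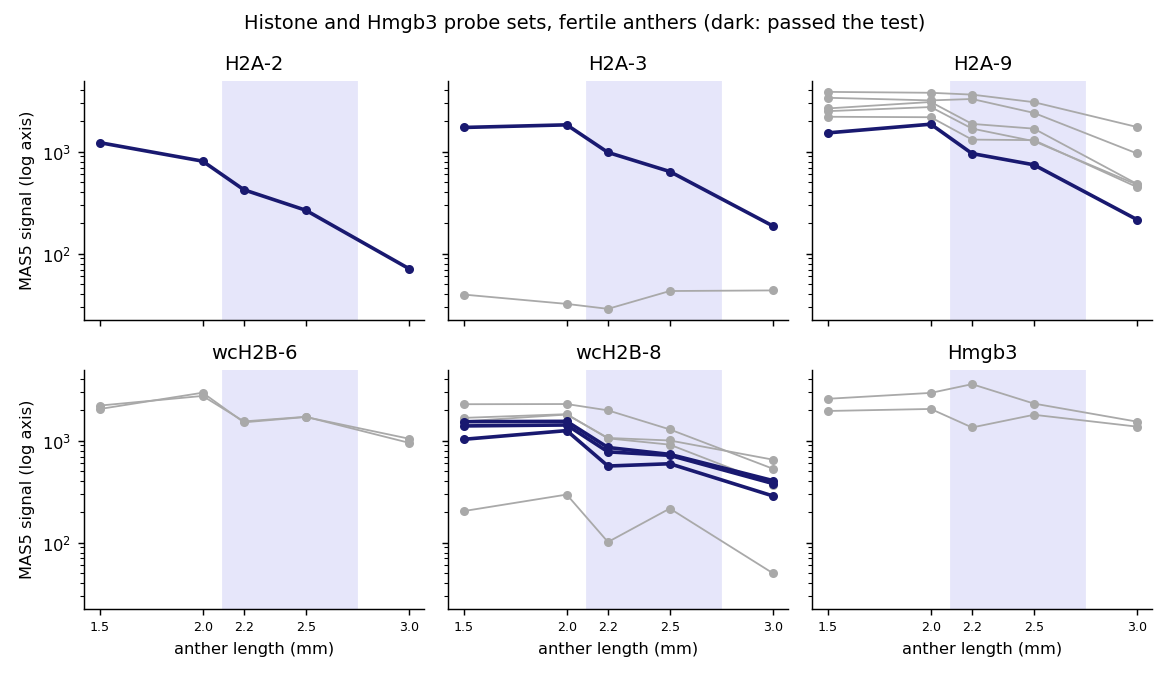
MAS5 signal (y axis, log scale) against anther length (x axis, mm) for the 20 tested probe sets of 5 histone genes and Hmgb3 in fertile anthers, 1 line per probe set. Dark lines passed the test of 2.2 and 2.5 mm (shaded) against 1.5 and 2.0 mm. At 3.0 mm, 11 of the 20 were at least 2-fold lower than at 2.5 mm, beside 11.7% of all tested probe sets.

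No probe set of the tubulins and other cytoskeleton genes passed. Of their 12, 3 lay above 0 and 9 below (5 and 7 after median centring), and the median log2 difference was -0.14, close to that of all probe sets. tubb3, a beta-tubulin, had -0.52 (SE 0.20, limma adjusted p = 0.19), with 1539 and 1904 at 2.2 and 2.5 mm, against 2473 and 2445 at 1.5 and 2.0 mm. AdSS, the adenylosuccinate synthetase of purine synthesis, had -0.72 (SE 0.25, limma adjusted p = 0.15). Of the cold and dehydration genes 3 of 11 probe sets were bright enough to test, and none of the 3 passed (median 0.11).

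Calls on named genes varied with the arrays used. In each of the 4 fits that left out 1 array, 1 group had a single array and added no spread of its own. Passing in these fits is therefore no measure of a call's strength. The log2 differences in them ranged from 1.44 to 2.88 for BMY1, 1.94 to 2.32 for PRK and 1.38 to 2.01 for Pgk-1. Without the 1.5-mm array, 4 of the 22 called probe sets remained (those 3 and LTP3), and TaRAFTIN1A had 1.11 (limma adjusted p = 0.12), PEAMT1 1.34 (limma adjusted p = 0.076) and H2A-2 -1.27 (limma adjusted p = 0.15). Without the 2.0-mm array 11 remained, and H2A-3 had -1.13 (limma adjusted p = 0.14). Without the 2.2-mm array 18 remained, the losses being RPL9, petC and 1 probe set each of wcH2B-8 and PsbP. Without the 2.5-mm array 18 remained, the losses being lgul, H2A-9 and 1 probe set each of Prx1 and wcH2B-8. After median centring 15 remained. With the floor at the 40th percentile 3 remained (PRK, Pgk-1 and Trx-M), and BMY1 (limma adjusted p = 0.096), TaRAFTIN1A (0.082), PEAMT1 (0.067) and H2A-2 (0.090) were among those lost. Without the filter on low signals none of the 22 passed (limma adjusted p = 0.18 to 0.39), and without an intensity trend PRK and LTP3 did. In every one of these fits each of the 22 kept the sign of its difference, which was largely set in advance. The filter and the trend leave the difference itself unchanged. Where the groups do not overlap, leaving out 1 array cannot reverse it.

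The probe sets with the largest differences had no gene name and changed between the floor and high signals. They passed the filter only through the arrays where they are high, and signals set to the floor have no spread, so they are given as values without a p. TaAffx.59835.1.S1_x_at read 6168 and 4917 at 2.2 and 2.5 mm, against 1.01 and 1.03 at 1.5 and 2.0 mm, where it was under the floor, so that it was at least 1359-fold higher. It was back at 9.63 at 3.0 mm. TaAffx.9509.1.S1_at had 2535 and 3991, against 1.09 and 1.25, at least 785-fold higher, and 1.35 at 3.0 mm. Ta.24618.2.S1_at had 4826 and 3604, against 4.26 and 8.24, near the floor, and 2.88 at 3.0 mm. All 3 were thus high at 2.2 and 2.5 mm only, among the 5 fertile lengths.

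The largest falls were smaller. Ta.19005.1.S1_at had 1.77 and 4.92 at 2.2 and 2.5 mm, against 377 and 94.5 at 1.5 and 2.0 mm, at least 42.3-fold lower, and 13.6 at 3.0 mm. Ta.4046.1.S1_a_at had 2.36 and 3.04, against 233 and 119, at least 41.1-fold lower. TaAffx.92553.1.S1_at had 6.45 and 3.13, against 260 and 136, at least 36.8-fold lower. Ta.4046.1.S1_a_at then read 3083 and TaAffx.92553.1.S1_at 5235 at 3.0 mm, so that both were low at 2.2 and 2.5 mm and high on either side.

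In all, 101 of the called probe sets were at least 16-fold higher at 2.2 and 2.5 mm and 6 were at least 16-fold lower. Both short arrays were under the floor for 7 of the 101, and both mid-length arrays for 3 of the 6. Of the 101, 81 were at least 2-fold below that level again at 3.0 mm, 44 of them at least 16-fold, and 31 lay within 2-fold of the short anthers. All 6 lower ones were at least 2-fold higher again at 3.0 mm. Among all tested probe sets, 10.2% were at least 2-fold lower and 9.69% at least 2-fold higher there than at 2.2 and 2.5 mm. The 101 and the 6 were picked by the same 2.2- and 2.5-mm signals that the 3.0-mm array is set against. Between single lengths, differences of at least 16-fold numbered 0 higher and 5 lower at 2.0 mm, 94 higher and 17 lower at 2.2 mm, and 9 higher and 3 lower at 2.5 mm. At 3.0 mm against 2.5 mm there were 154 higher and 193 lower.

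**Figure D4:**
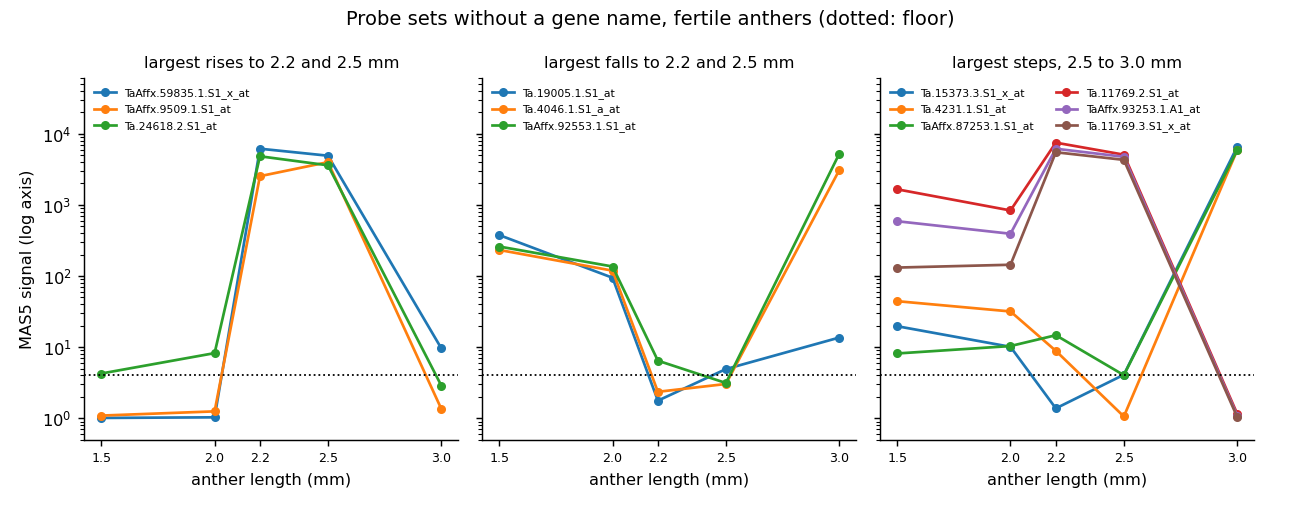
MAS5 signal (y axis, log scale) against anther length (x axis, mm) for probe sets without a gene name in fertile anthers. Left, the 3 largest rises at 2.2 and 2.5 mm, middle, the 3 largest falls, and right, the 3 largest differences in each direction at 3.0 mm against 2.5 mm, with the floor of 4.05 as a dotted line. The 3 probe sets on the left lie between 2535 and 6168 at 2.2 and 2.5 mm and at 9.63 or less at the other lengths.

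Of the 745 probe sets higher at 2.2 and 2.5 mm, 101 were at least 2-fold higher still at 3.0 mm, 307 were within 2-fold and 337 were at least 2-fold lower. Of the 504 lower ones, 95 were at least 2-fold higher at 3.0 mm than at 2.2 and 2.5 mm, 282 within 2-fold and 127 at least 2-fold lower. Among all tested probe sets the same counts were 2963, 24522 and 3105. These are counts on 1 array with no test, and the calls were made on the same 2.2- and 2.5-mm signals that the 3.0-mm array is set against.

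At 3.0 mm against 2.5 mm, 8 of the 75 named genes were at least 2-fold higher and 12 at least 2-fold lower, beside 8.29% and 11.7% of all tested probe sets. LTP3 was 17.5-fold higher, with 2554 at 3.0 mm and 146 at 2.5 mm. COMT1 was 9.47-fold higher, with 2979 at 3.0 mm and 314 at 2.5 mm. GAPN, a non-phosphorylating glyceraldehyde-3-phosphate dehydrogenase, was 6.78-fold higher with 481 and 71.0, and both it and COMT1 had been within 2-fold among the 4 shorter lengths.

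The gene listed as at2G04570 was 6.41-fold higher, BMY1 3.99-fold and GSTZ1, a zeta-class glutathione transferase, 3.19-fold. RPL9 was 13.7-fold lower at 3.0 mm than at 2.5 mm. XTH, a xyloglucan endotransglucosylase that loosens and remodels cell walls, was 9.17-fold lower, with 13.0 at 3.0 mm, against 119 at 2.5 mm and 118 to 131 at the other lengths. GA20ox1b, a gibberellin 20-oxidase, was 5.10-fold lower with 13.0 and 66.5. H2A-2 was 3.74-fold lower, H2A-3 3.42-fold and CAT1 2.63-fold.

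Relative to the mean of 1.5 and 2.0 mm, the median log2 value of the 20 histone and Hmgb3 probe sets was -0.69 at 2.2 mm, -0.76 at 2.5 mm and -1.96 at 3.0 mm. The median of all tested probe sets was -0.22, -0.02 and -0.07 at these lengths. The 17 photosynthesis probe sets stood at 0.79, 0.89 and 0.81, and the 4 tapetum probe sets at 1.29, 1.21 and 1.58. The antioxidant probe sets had 0.85 and 0.78 at 2.2 and 2.5 mm and 0.11 at 3.0 mm. In this order of lengths the histone list was lowest and the tapetum list highest at 3.0 mm, while the antioxidant median was back near the short anthers. The antioxidant members did not move together. Of the 10, 5 were at least 2-fold lower and 2 at least 2-fold higher at 3.0 mm than at 2.5 mm. Of all tested probe sets 11.7% were lower and 8.29% higher by that measure.

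The largest single steps to 3.0 mm were also in probe sets without a name, picked here after their values were seen. Ta.15373.3.S1_x_at had 6558 at 3.0 mm and 4.10, close to the floor, at 2.5 mm. Ta.4231.1.S1_at with 5898 and TaAffx.87253.1.S1_at with 5867 at 3.0 mm were at least 1456- and 1448-fold above 2.5 mm. In the other direction Ta.11769.2.S1_at had 1.16 at 3.0 mm and 5083 at 2.5 mm, at least 1255-fold lower. TaAffx.93253.1.A1_at and Ta.11769.3.S1_x_at were at least 1172- and 1061-fold lower at 3.0 mm. These last 3 had their highest signals at 2.2 mm, between 5499 and 7504.

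Whether the change from short to mid lengths differed between fertile and sterile anthers was tested on 8 arrays, as the fertile log2 difference minus the sterile one. Of 30590 probe sets 392 passed, with 197 positive (0.644%) and 195 negative (0.637%), and 4533 had an unadjusted p under 0.05. This test shares the fertile arrays with the comparison above and is not independent of it. Among 117 tested named probe sets 1 passed, that of PEAMT1. Its fertile signals were those given above, and in sterile anthers it read 737 and 734 at 2.2 and 2.5 mm, against 705 and 741 at 1.5 and 2.0 mm. The difference was 1.63 on the log2 scale (SE 0.32, limma adjusted p = 0.046). It did not pass without the filter (limma adjusted p = 0.22), without a trend (0.17), or without the fertile 1.5-mm (0.10) or 2.5-mm array (0.056) or any of the 4 sterile arrays (0.13 to 0.17). Leaving out 1 array moved the count of 392 to between 140 (without the sterile 1.5-mm array) and 984 (without the fertile 2.5-mm array).

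None of the other named genes gave a passing difference between the conditions. H2A-2 had a log2 difference of -1.47 (SE 0.36, limma adjusted p = 0.094), with 918 and 1134 at 2.2 and 2.5 mm in sterile anthers, against 1084 and 1101 at 1.5 and 2.0 mm. Pgk-1 had 1.32 (SE 0.34, limma adjusted p = 0.11) and PRK 0.84 (SE 0.35, limma adjusted p = 0.29). TaRAFTIN1A had 0.23 (SE 0.33, limma adjusted p = 0.79), with sterile signals of 1484 and 1092 at 2.2 and 2.5 mm, against 594 and 535 at 1.5 and 2.0 mm. For the 20 histone and Hmgb3 probe sets the median of this difference was -0.46, for photosynthesis 0.65, for sugar and starch 0.67 and for the tapetum 0.09. The unnamed TaAffx.59835.1.S1_x_at read 7.46 or less on the 4 sterile arrays of 1.5 to 2.5 mm, and TaAffx.9509.1.S1_at 1.34 or less.

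**Figure D5:**
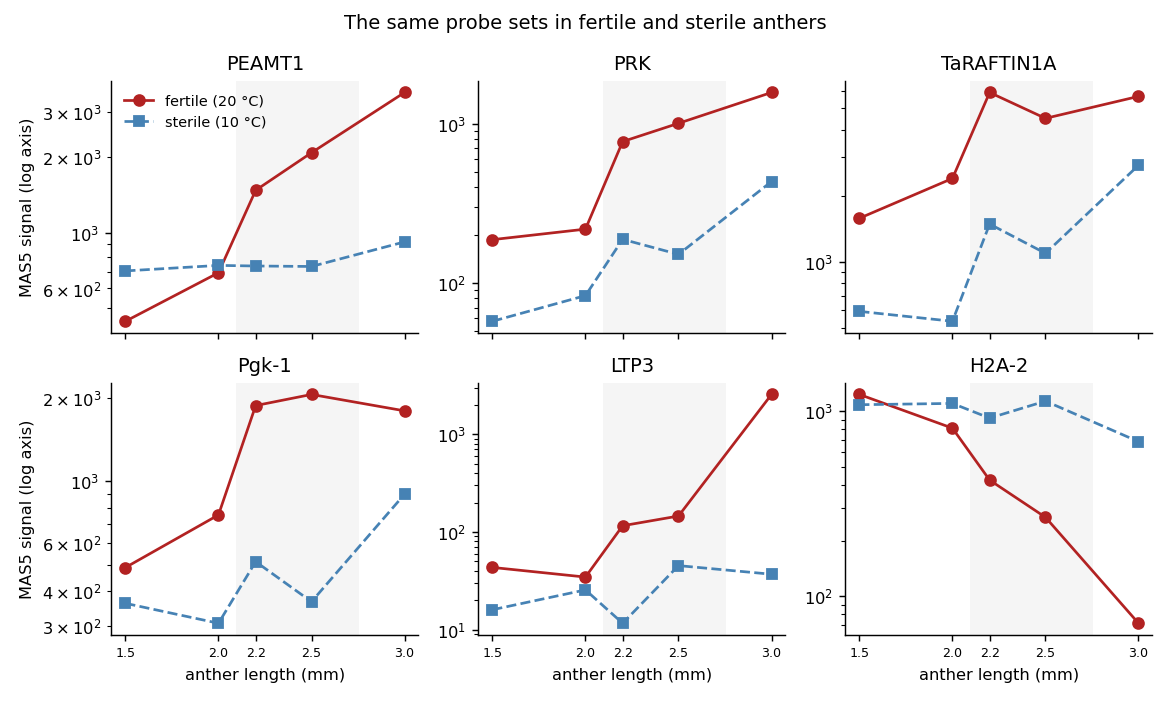
MAS5 signal (y axis, log scale, own range in each panel) against anther length (x axis, mm) for 6 named genes in fertile anthers at 20 °C (circles, solid) and sterile anthers after 10 °C (squares, dashed), 1 array per point, with 2.2 and 2.5 mm shaded. PEAMT1, the gene with a passing difference, lies between 705 and 741 over the 4 sterile lengths tested.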

How the data were processed

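Anthers of BS366 were measured on 10 one-colour arrays, 1 per condition and length. The authors deposited linear MAS5 intensity values of 61290 probe sets. The version of MAS5 and its scaling target are not given in the sources used here, and no detection calls were used. Groups came from the sample titles, and the 4 fertile arrays of 1.5 to 2.5 mm form the groups compared.

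The 111 control probe sets were left out. Signals under 4.05, the 20th percentile, were raised to it, and log2 was taken. The 30590 probe sets whose mean over the 5 fertile arrays reached the median entered limma 3.58.1 in R 4.3.3 (lmFit, eBayes with an intensity trend, 2 residual degrees of freedom, two-sided, Benjamini-Hochberg 0.05). The fertile minus sterile difference used 8 arrays, its own filter over them and 4 residual degrees of freedom. On simulated data the fit recovered most large changes when each probe set's spread was drawn from the moderated estimate, and far fewer when it was drawn from the probe set's own residuals, so the number of calls rests on how limma shares the spread.

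A platform annotation gave genes for 1273 probe sets (771 genes, 770 of them in RefSeq's table for the assembly IWGSC CS RefSeq v2.1). Where its symbol was a LOC number, the name was taken from the RefSeq synonyms, which widens the naming rule first set and gives 102 gene names on 200 probe sets. The files name no genome build, so no coordinates are given. Named are, per direction, of the genes that passed without overlap, up to 12 by size of difference (filled up to 6 by p), up to 4 members of each list by p, 3 probe sets without a name, and up to 6 genes at 3.0 mm. TaRAFTIN1A is always given. A gene is given by its brightest probe set, and others where they disagree or were called. Genes, lists and tests were chosen with earlier results of these data known.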

Additional observations from a re-analysis of the deposited data

Results flagged for a closer look

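Over 5 arrays a value was picked out when its gap to the nearest other array exceeded 0.71 of the whole range (log2 signals, floored). This held for 11 of 78 quantities screened. Chance alone gives about 1 in 20, and since the 5 arrays are 5 lengths, a gap may also be development. For the hybridization controls the 2.2-mm array was highest (0.718 of the range), for the 18S rRNA control the 1.5-mm array (0.81), and for the mean correlation with the other fertile arrays the 3.0-mm array was lowest (0.919).

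Of 75 named genes, 8 had such a gap. The 3.0-mm array was highest for COMT1 (0.773), GAPN (0.773) and tubb2 (0.78), a beta-tubulin at 4635 there and 2449 to 2818 elsewhere. The same array was lowest for XTH (0.954) and gli-2 (0.931, 36.1 there). The 2.2-mm array, also that with the high hybridization controls, was highest for XIP-I (0.879), a xylanase inhibitor at 129 there and 70.2 to 75.5 elsewhere, and for TEF1 (0.76), a translation elongation factor. It was lowest for DMAS1 (0.751), an enzyme of the iron-chelating mugineic acids. The part of the controls in these values was not tested.

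PEAMT1 passed the test of a difference between conditions, near the threshold. Its rise from the short to the mid lengths was larger in fertile than in sterile anthers by 1.63 on the log2 scale (limma adjusted p = 0.046), and the sterile signals moved by less than 0.1 on that scale. PEAMT1 did not pass without the filter on low signals (limma adjusted p = 0.22) or without an intensity trend (limma adjusted p = 0.17). Leaving out 1 array gave differences of 1.31 to 1.95.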

How the results depend on the processing

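With 1 array per length, 2 residual degrees of freedom and no detection calls, low signals carry little information, and the call counts are soft. The 1249 probe sets (745 higher, 504 lower) became 391 (300 higher, 91 lower) with a floor at the 40th percentile, 0 in both directions without the filter, and 432 (329 and 103) without a trend. With the spread shared over all 10 arrays there were 2838 (1091 and 1747). Leaving out 1 array gave 527 to 1796 calls, 407 to 769 higher and 120 to 1066 lower. Quantile normalization (1331), median centring (1112), no floor (1220), a stricter filter (1412) and a filter over the 4 arrays compared (1270, chosen after seeing the data) stayed within 1.5 times.

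The 392 probe sets of the fertile minus sterile difference became 208 without the filter, 158 without a trend, and 140 to 984 without 1 array. With anther length as a block, chosen after seeing the data, 362 passed and PEAMT1 kept its call (adjusted p = 0.040 from limma). No paired analysis was possible within the fertile series because the labels give a length and no replicate number.

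The 2-fold counts of the 4 steps (1852, 5159, 3032 and 6104) became 8791, 13630, 11673 and 14882 without the filter and 457, 1590, 863 and 2839 at 3-fold. None of the 22 called named probe sets reversed its sign under any setting. Most settings could not reverse it, so this does not test the calls. Some members that were not called, with differences nearer to 0, changed sign under rescaling: 3 of 12 tubulin and cytoskeleton probe sets lay above 0, and 5 after median centring.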

Other observations

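Some named genes outside the groups above moved at single lengths, as values with no passing test. GA20ox1a, a gibberellin 20-oxidase, had 81.03 at 2.2 mm and 40.8 at 2.5 mm, against 26.7 at 1.5 mm and 31.6 at 2.0 mm (log2 difference 0.98, SE 0.42, limma adjusted p = 0.24). GLU1A, a beta-glucosidase, was at 287 at 3.0 mm and between 99.0 and 149.7 at the other lengths. Of 3 H+-ATPase probe sets, proton pumps of the plasma membrane, 2 read 1009 and 1430.5 at 3.0 mm, against 378 and 646 at 1.5 mm, and the other one showed no single direction.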
